A study of Arabidopsis thaliana with 10 samples.

Results

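Hypocotyls of the bzr1-1D mutant grown on a brassinosteroid synthesis inhibitor were set against wild-type hypocotyls grown without that inhibitor, to describe which transcripts of the mutant stood at the wild-type level and which stood above or below it. The members were the 2 libraries of bzr1-1D on paclobutrazol (PAC) with propiconazole (PPZ) and the 2 libraries of wild type on PAC alone, 4 of the 10 libraries of the series, taken by genotype and medium from the labels. The 2 libraries of wild type on PAC with PPZ gave a level for each gene with the inhibitor and without the mutation. Every plant was of the Col-0 background, grew 4.5 days in the dark on 1 µM PAC, and received a mock solution 12 hours before the end. The bzr1-1D seedlings had 2 µM PPZ in the medium, as did the wild type on PAC with PPZ, and the other wild type had 0 µM PPZ. The labels give hypocotyl as the tissue and mark the second sample of each group as a repeat, without saying whether the plants were grown separately. The p-values below therefore measure only the spread between these samples, which may be technical. Genotype and PPZ both differ between bzr1-1D on PAC with PPZ and wild type on PAC, so their parts in a difference cannot be told apart in that comparison alone.

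Brassinosteroids are steroid hormones that drive cell elongation in the dark-grown hypocotyl. They act through the receptor kinase BRI1, which leads to inhibition of the kinase BIN2 and to the accumulation of the transcription factors BZR1 and BES1 in the nucleus. The bzr1-1D allele is a dominant point mutation that stabilises the BZR1 protein, so the read count of BZR1 does not check the label. BZR1 is known to repress the genes of brassinosteroid synthesis and to activate many genes of cell expansion. PPZ blocks brassinosteroid synthesis and PAC blocks gibberellin synthesis, and seedlings that lack either hormone are short and partly de-etiolated in the dark.

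The deposited values are means of the 2 libraries of a group, from which the whole reads of each library were recovered. Libraries of a pair are called the shallower and the deeper and are given in that order, because which is the first sample and which the repeat is unknown. Reads recovered in genes numbered 12181622 and 12721487 in bzr1-1D on PAC with PPZ and 14723827 and 15392324 in wild type on PAC with PPZ. In wild type on PAC they numbered 7893237 and 16097871. These totals leave out highly expressed genes that could not be split, 103 in bzr1-1D, 17 in wild type on PPZ and 11 in wild type on PAC. They therefore understate depth and do not compare it between groups. In the same order of groups, size factors were 1.06 and 1.11, 1.13 and 1.17, and 0.567 and 1.11. Among genes of at least 1000 normalized reads, the SD of the log2 ratio within the pair was 0.162 in bzr1-1D, 0.0889 in wild type on PAC with PPZ and 0.244 in wild type on PAC. The pair of wild type on PAC was thus the most uneven in depth and in spread. Levels are given as normalized reads, which are reads divided by the size factor of the library. They are not divided by transcript length and do not rank genes against each other. Changes given without a unit are log2 changes, written with their SE or 95% interval, and every adjusted p is that of limma-voom with Benjamini-Hochberg adjustment over all genes tested. A gene was called at an adjusted p under 0.05, and "rose", "fell", "higher" and "lower" are used of called genes and are relative to wild type on PAC unless another group is named.

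Of 33518 genes, the 19324 that averaged 10 or more normalized reads over the 4 libraries were tested. In bzr1-1D on PAC with PPZ against wild type on PAC, 2958 genes rose, 15.3% of those tested, and 3042 fell, 15.7%, so that 31.0% were called. Counts of called genes in the lists below are to be read beside these shares, and several lie near them. At least 2-fold changes were found in 1522 of the genes that rose and in 856 of those that fell. For 13905 genes, 72.0%, the whole 95% interval of the change lay within 2-fold, and 2131 of these were also called. Another 1550 genes were neither called nor bounded within 2-fold. The 4 libraries did not overlap between the groups for 12914 genes, 66.8%, and all 6000 called genes were among them. The median change over all genes tested was -0.008. Residual degrees of freedom numbered 2 among the 4 libraries. Without the shallower bzr1-1D library 1771 genes rose and 1566 fell, the only single library whose omission moved these counts by over 1.5 times.

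Wild type on PAC with PPZ against wild type on PAC called 24.1% of 19415 genes, of which 2294 rose, 11.8%, and 2381 fell, 12.3%. That call count of 4675 became 2401 and 2223 without the shallower and the deeper library on PPZ, and 7905 without the shallower library of wild type on PAC. In bzr1-1D against wild type with both on PAC and PPZ, 46.6% of 19851 genes were called, with 23.2% higher and 23.4% lower in bzr1-1D. The authors' deposited table of this last comparison called 14.5% of 24621 genes higher and 15.0% lower by its own DESeq test. Each pair of these comparisons shares libraries, so their values are given side by side and not as independent evidence.

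**Figure D1:**
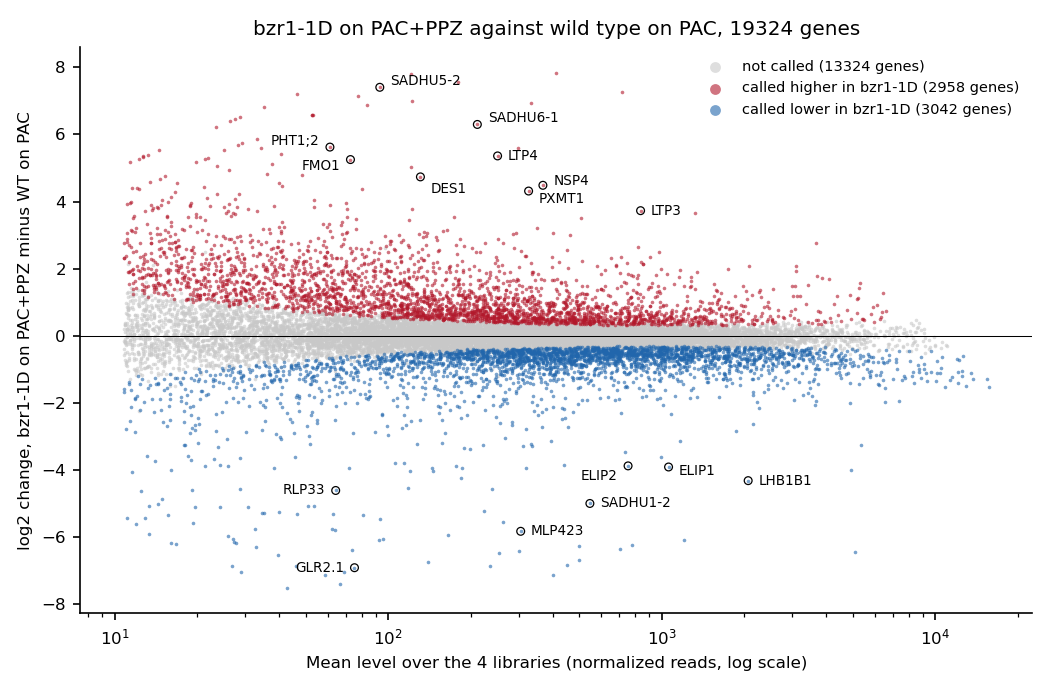
Log2 change of each tested gene in bzr1-1D on PAC with PPZ over wild type on PAC (vertical axis) against its mean level in normalized reads (horizontal log axis), each point being 1 gene. Red points are the 2958 genes that rose, blue points the 3042 that fell and grey points the 13324 not called, and circled points carry the names of genes described in the text.

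The largest changes among genes with a symbol and a mean of at least 50 normalized reads included lipid transfer proteins, enzymes of immunity, photoprotective proteins and noncoding elements. SADHU5-2, a noncoding element of a multicopy family, had 402 reads in the bzr1-1D libraries together, against 1 read in wild type on PAC with PPZ and 1 in wild type on PAC. Its ratio over wild type on PAC was 311, with an exact 95% interval of 55.5 to 12300 that covers counting error only. SADHU6-1 had 477.1 and 360 normalized reads in bzr1-1D, against 1.772 and 3.41 in wild type on PAC with PPZ and 1.765 and 8.106 in wild type on PAC. These 2 elements were high in both bzr1-1D libraries and near 0 in all 4 wild-type libraries, whereas SADHU1-2 of the same kind was lower in bzr1-1D. PHT1;2, a phosphate transporter, had 261 reads in bzr1-1D, 0 in wild type on PAC with PPZ and 3 in wild type on PAC, a ratio over the last of 67.3 with an interval of 22.8 to 328. Its neighbour PHT1;1 is nearly identical, so reads may be split between them.

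LTP3 and LTP4 encode lipid transfer proteins of the epidermis and of stress responses. LTP3 had 1713 and 1373 normalized reads in bzr1-1D, 204.6 and 243.8 in wild type on PAC with PPZ and 171.2 and 90.07 in wild type on PAC, a 13.2-fold rise (log2 change 3.73 ± 0.24 SE, adjusted p = 8.05e-06). LTP4 had 541.4 and 430.2 normalized reads in bzr1-1D, 23.03 and 21.31 in wild type on PAC with PPZ and 26.47 and 6.305 in wild type on PAC. Both genes were high only in the bzr1-1D pair of these 6 libraries. FMO1, a monooxygenase of systemic immunity, had 154.3 and 130.5 normalized reads in bzr1-1D, 62.01 and 36.66 in wild type on PAC with PPZ and 1.765 and 4.503 in wild type on PAC. NSP4, a nitrile-specifier protein that acts on glucosinolate breakdown, rose 22.4-fold (4.48 ± 0.24, adjusted p = 4.63e-06), with 716.6 and 686.7 normalized reads in bzr1-1D, 311.8 and 288.1 in wild type on PAC with PPZ and 42.35 and 25.22 in wild type on PAC. For FMO1 and NSP4 the wild type on PAC with PPZ lay between bzr1-1D and wild type on PAC. The other genes of this group were DES1, PXMT1, MDHAR, CYP702A5 and CYP71A12, which rose by log2 changes of 3.54 to 4.73. MDHAR and CYP702A5 stood nearly as high in wild type on PAC with PPZ. MDHAR had 128.5 and 91.22 normalized reads there, against 149.6 and 115.2 in bzr1-1D. CYP702A5 had 184.3 and 169.6, against 236.6 and 220.5. With both on PPZ, MDHAR was not called (0.268, adjusted p = 0.255) and CYP702A5 was higher in bzr1-1D by 0.359. DES1, PXMT1 and CYP71A12 were higher by 3.473, 1.852 and 1.072.

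On the lower side stood genes that were almost absent in bzr1-1D alone. MLP423, of the major latex protein-like family, fell 56.9-fold, with 9.466 and 10.8 normalized reads in bzr1-1D, 1349 and 1495 in wild type on PAC with PPZ and 605.3 and 594.5 in wild type on PAC. GLR2.1, a glutamate receptor-like channel, had 3 reads in bzr1-1D, 335 in wild type on PAC with PPZ and 244 in wild type on PAC, which is 105-fold lower in bzr1-1D than in the last, with a counting interval of 35.6 to 513. Both genes separated the 2 genotypes whatever the medium of the wild type. RLP33, a receptor-like protein, and the element SADHU1-2 showed the same order, with log2 changes of -4.61 and -5.0. Chloroplast proteins were among the rest, such as ELIP1 and ELIP2, which protect against excess light. ELIP1 had 128.7 and 126.9 normalized reads in bzr1-1D, 1930 and 1886 in wild type on PAC with PPZ and 1587 and 2394 in wild type on PAC, a 15.1-fold fall (-3.91 ± 0.21, adjusted p = 4.63e-06). These 24 genes were chosen for their size in these same libraries, so leaving out 1 of the 4 gives no independent check of them.

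Of 7 tested genes of brassinosteroid synthesis, 4 fell in bzr1-1D on PAC with PPZ and 0 rose, with a median change of -0.59. On PPZ in wild type, 3 of the 7 rose and 0 fell, and in bzr1-1D against wild type with both on PPZ, 5 fell. BR6OX2, which makes brassinolide in the last steps of the pathway, had 495.1 and 513 normalized reads in bzr1-1D, 5548 and 5656 in wild type on PAC with PPZ and 1969 and 1509 in wild type on PAC. Its level was thus lowest in bzr1-1D and highest in wild type on PPZ, with no overlap, and it fell 3.45-fold against wild type on PAC (-1.78 ± 0.14, adjusted p = 1.99e-05). BR6OX1, its paralog, fell by a log2 change of -1.77 ± 0.24 (adjusted p = 0.000473). DWF4, the 22-hydroxylase that limits the pathway's rate, had 532 and 516.6 normalized reads in bzr1-1D, 1480 and 1383 in wild type on PAC with PPZ and 1031 and 751.2 in wild type on PAC (-0.74 ± 0.15, adjusted p = 0.0039). CPD, another cytochrome P450 of the pathway, had 4173 and 4221 normalized reads in bzr1-1D, 5891 and 6157 in wild type on PAC with PPZ and 5626 and 7178 in wild type on PAC (-0.59 ± 0.15, adjusted p = 0.013). Its call did not hold without either bzr1-1D library, at adjusted p = 0.12 without the shallower and 0.0842 without the deeper. ROT3, a hydroxylase of the same cytochrome P450 family, had a change of -0.22 (adjusted p = 0.403) and was called, at -0.51 and 0.00237, without the deeper library of wild type on PAC. Upstream, in sterol synthesis, 0 of 13 tested genes were called, and all 13 lay within 2-fold with a median of -0.05, while 2 fell with all 10 libraries in the fit.

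Among the genes that inactivate brassinosteroids, 3 of 6 rose and 1 fell. BIA1, an acyltransferase, had 85.19 and 68.4 normalized reads in bzr1-1D, 91.25 and 72.46 in wild type on PAC with PPZ and 19.41 and 13.51 in wild type on PAC (2.24 ± 0.32). PIZ, a related acyltransferase, rose by 0.90, and SOB7, a cytochrome P450, by 0.64. BAS1, the C-26 hydroxylase related to SOB7, had 645.6 and 643.5 normalized reads in bzr1-1D, 292.3 and 286.4 in wild type on PAC with PPZ and 1031 and 853 in wild type on PAC. BAS1 therefore fell by 0.54 against wild type on PAC while it stood above wild type on PPZ. Without the shallower library of wild type on PAC, 2 genes of the list fell.

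The signalling components lay close to wild type on PAC. Of 16 tested genes, 1 rose, 2 fell and 14 were bounded within 2-fold, beside 72.0% so bounded over all genes. BRI1, the receptor, had 5014 and 4314 normalized reads in bzr1-1D, 3576 and 3622 in wild type on PAC with PPZ and 4371 and 4191 in wild type on PAC, a change of 0.12 ± 0.13 (adjusted p = 0.544). BIN2, the inhibitory kinase, had 5271 and 5054 normalized reads in bzr1-1D, 3712 and 3734 in wild type on PAC with PPZ and 5683 and 5266 in wild type on PAC (-0.09 ± 0.12, adjusted p = 0.625). In wild type, PPZ lowered BIN2 by a log2 change of -0.56 (adjusted p = 0.00423). BIL2, a kinase related to BIN2, fell by 0.59. Leaving out 1 library moved the rise to 0 without the shallower bzr1-1D library, and the falls to 1 without either bzr1-1D library or without the deeper library of wild type on PAC.

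BZR1 itself had 616.2 and 567 normalized reads in bzr1-1D, 382.7 and 400.7 in wild type on PAC with PPZ and 487.1 and 435.9 in wild type on PAC, a 1.29-fold rise (0.36 ± 0.12, adjusted p = 0.041). That call rested on single libraries, with adjusted p = 0.306 and 0.111 without the shallower and the deeper bzr1-1D library, and 0.187 without the deeper library of wild type on PAC. BES1, its closest relative, had a change of -0.18 (adjusted p = 0.253). Among 11 tested genes of the BZR1 family and its partner factors, 2 rose and 4 fell. BEH3, a family member, rose by 1.13, while BEH1 fell by 0.95 and MYBL2, a repressor that works with BES1, fell by 1.04. Without the shallower bzr1-1D library or the deeper library of wild type on PAC, 1 gene rose and 2 fell, and without the deeper bzr1-1D library 1 rose.

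Gibberellin genes were mixed, and all plants were on PAC. Of 9 tested synthesis genes, 3 fell and 0 rose. GA20OX1, an oxidase of the last steps of gibberellin synthesis, had 92.76 and 74.7 normalized reads in bzr1-1D, 37.21 and 46.04 in wild type on PAC with PPZ and 190.6 and 167.5 in wild type on PAC (-1.09 ± 0.18, adjusted p = 0.00144). GA20OX2 had 2340 and 1918 normalized reads in bzr1-1D, 1550 and 1453 in wild type on PAC with PPZ and 4460 and 2902 in wild type on PAC (-0.79 ± 0.19, adjusted p = 0.00971), and was at an adjusted p of 0.0535 without the deeper bzr1-1D library. For both oxidases bzr1-1D lay between wild type on PPZ and wild type on PAC. GA3OX1, which makes the active gibberellins, had 1494 and 1323 normalized reads in bzr1-1D, 881.5 and 906.2 in wild type on PAC with PPZ and 1324 and 1337 in wild type on PAC, a change of 0.08 ± 0.11 with a 95% interval of -0.18 to 0.33. GA2OX2, which inactivates gibberellins, rose by 1.95 ± 0.33. Among 11 genes of gibberellin perception 2 rose, beside 15.3% over all genes, and RGL2, a DELLA repressor, rose by 0.91. Without the deeper bzr1-1D library 1 synthesis gene fell, and without any 1 of the 4 libraries 1 perception gene rose.

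Small helix-loop-helix proteins that promote elongation, the PRE family, bind and titrate growth-restraining relatives. PRE5 had 63.42 and 77.4 normalized reads in bzr1-1D, 23.92 and 18.76 in wild type on PAC with PPZ and 90 and 54.94 in wild type on PAC, a change of 0.08 ± 0.26 with a 95% interval of -0.49 to 0.65. PRE6 had 782.8 and 710.1 normalized reads in bzr1-1D, 247.2 and 228.5 in wild type on PAC with PPZ and 915.9 and 684.5 in wild type on PAC (-0.08 ± 0.14, adjusted p = 0.717). In both genes the bzr1-1D libraries overlapped those of wild type on PAC and stood clear of wild type on PPZ, where the log2 changes in wild type were -1.61 and -1.72. PRE2, under the level filter and chosen after its values were seen, had 1.893 and 2.7 normalized reads in bzr1-1D, 2.658 and 5.115 in wild type on PAC with PPZ and 19.41 and 15.31 in wild type on PAC, so it was low in both groups on PPZ. PRE3 rose by 1.74 ± 0.37 against wild type on PAC, with 27.45 and 30.6 normalized reads in bzr1-1D. It had 60.24 and 46.89 in wild type on PAC with PPZ and 7.059 and 9.007 in wild type on PAC. For PRE3 bzr1-1D thus lay between the wild-type groups, below wild type on PPZ (-0.87, adjusted p = 0.0114). PRE1 stayed under the level filter, with 2.84 and 0.9 normalized reads in bzr1-1D. It had 0 and 0.8525 in wild type on PAC with PPZ and 5.294 and 2.702 in wild type on PAC. The growth-restraining proteins that PREs bind showed 3 falls and 0 rises among 8, with a median of -0.04. PPZ lowered all 8 in wild type, with a median of -0.89. IBH1, one of them, had a change of 0.08 (95% interval -0.31 to 0.47), with 637 and 512.1 normalized reads in bzr1-1D, 385.4 and 324.8 in wild type on PAC with PPZ and 660 and 455.8 in wild type on PAC. PAR1, a shade-induced inhibitor, fell by 0.75. Without the deeper bzr1-1D library 1 of the 8 fell.

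The growth-promoting factors were as varied. PIF4, a phytochrome-interacting factor that acts with BZR1, had 359.7 and 337.5 normalized reads in bzr1-1D, 151.5 and 171.4 in wild type on PAC with PPZ and 423.5 and 380.1 in wild type on PAC, a change of -0.20 against the last. PIF8, a less studied relative, fell by 3.31 ± 0.41, with 3.786 and 4.5 normalized reads in bzr1-1D, 15.06 and 18.76 in wild type on PAC with PPZ and 38.82 and 48.64 in wild type on PAC. Of 7 tested genes of the PIF family 2 rose and 1 fell, the rises numbering 0 without either bzr1-1D library and 1 without the deeper library of wild type on PAC. BEE2 and HBI1, bHLH activators of elongation, fell, with log2 changes of -1.04 and -0.76, which makes 2 of 5 tested genes of their list, and 1 gene of it rose without the deeper library of wild type on PAC. In wild type PPZ also lowered BEE2 and HBI1, with log2 changes of -0.81 and -0.71. With both on PPZ, BEE2 was lower in bzr1-1D (-0.24, adjusted p = 0.0355) and HBI1 was not called (-0.06, adjusted p = 0.573). Among 7 genes of the shade response, made up of 5 homeodomain-zipper factors and the bHLH genes PIL1 and HFR1, 3 fell and 0 rose. HFR1, which restrains shade growth, fell by 0.79, and the homeodomain-zipper genes HAT2 and HAT3 fell by 0.48 and by 0.82. HAT2 was at an adjusted p of 0.133 without the deeper bzr1-1D library, and HAT3 at 0.0558 without the shallower. Without the deeper library of wild type on PAC 5 of the 7 fell, and without the shallower 1 rose.

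**Figure D2:**
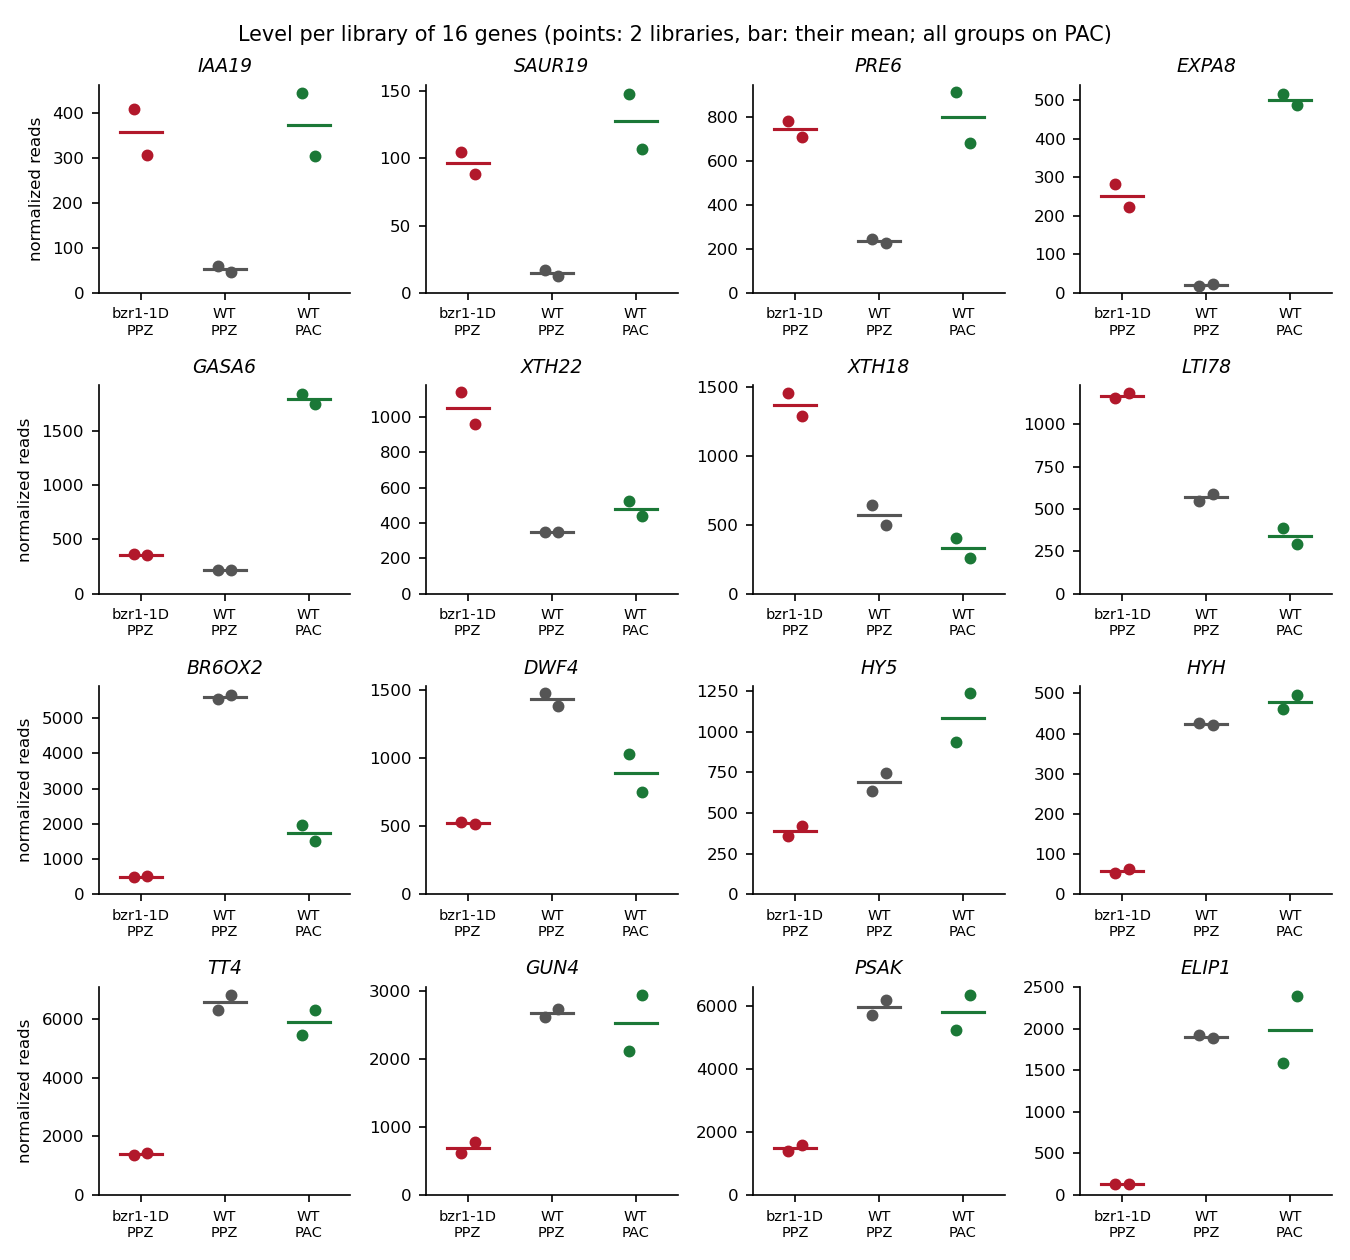
Normalized reads in each library (vertical linear axis) of 16 genes, grouped as bzr1-1D on PAC with PPZ, wild type on PAC with PPZ and wild type on PAC, with 2 libraries a group as points. For IAA19, SAUR19 and PRE6 the bzr1-1D points overlap or adjoin those of wild type on PAC, and for HYH, TT4, GUN4, PSAK and ELIP1 they lie below both wild-type groups.

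Aux/IAA genes, which encode auxin-induced repressors of auxin signalling, had a small median change against wild type on PAC. Of 24 tested, 1 rose, 6 fell and 19 were bounded within 2-fold, with a median of -0.06. Over all genes 15.3% rose, 15.7% fell and 72.0% were so bounded. In wild type PPZ lowered 13 of 25, with a median of -0.58, and 13 of 25 were higher in bzr1-1D than in wild type on the same medium. IAA19, a known BZR1 target linked to hypocotyl bending and growth, had 408.9 and 306.9 normalized reads in bzr1-1D, 59.36 and 46.04 in wild type on PAC with PPZ and 444.7 and 304.4 in wild type on PAC. The change against wild type on PAC was -0.02 ± 0.19 with a 95% interval of -0.44 to 0.40, and that of wild type on PPZ was -2.75 (adjusted p = 0.000115). IAA6, chosen after its values were seen, had 77 reads in bzr1-1D and 0 in wild type on PAC with PPZ, against 86 in wild type on PAC. IAA28, a repressor that acts in roots, rose by 0.92 ± 0.15, the 1 rise of the family. The falls numbered 1 without the deeper bzr1-1D library, and 2 genes rose without the shallower library of wild type on PAC.

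SAUR genes, small auxin-induced RNAs whose products promote cell expansion, were called about as often as all genes. Of 79 listed, 54 were tested, of which 6 rose, 10 fell and 26 were bounded within 2-fold, with a median of -0.06, beside 15.3% higher and 15.7% lower over all genes. PPZ in wild type lowered 27 of 53, with a median of -1.07, and 32 of 59 were higher in bzr1-1D than in wild type on PPZ. The neighbouring and similar genes SAUR19 to SAUR24, chosen after their values were seen, are known to drive hypocotyl elongation. SAUR19 had 105.1 and 88.2 normalized reads in bzr1-1D, 16.83 and 12.79 in wild type on PAC with PPZ and 148.2 and 107.2 in wild type on PAC. Against wild type on PAC, SAUR19, SAUR20, SAUR21, SAUR22, SAUR23 and SAUR24 had log2 changes of -0.34, 0.23, 0.24, -0.06, -0.43 and 0.23, with none called. SAUR15, an auxin-induced gene, had 29.34 and 25.2 normalized reads in bzr1-1D, 6.201 and 3.41 in wild type on PAC with PPZ and 56.47 and 31.52 in wild type on PAC (-0.53), and was called at an adjusted p of 0.0112 without the deeper library of wild type on PAC. Other SAURs stood away from wild type on PAC. SAUR55 had 452.5 and 386.1 normalized reads in bzr1-1D, 351.7 and 370 in wild type on PAC with PPZ and 100.6 and 121.6 in wild type on PAC, a rise of 1.87 ± 0.17. SAUR31 rose by 1.34, and SAUR6, SAUR14 and SAUR51 fell, with log2 changes of -1.38, -1.20 and -1.33. The rises numbered 3 without the deeper library of wild type on PAC, and the falls 16 without that library and 5 without the deeper bzr1-1D library.

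Genes that move or conjugate auxin gave single large changes. GH3 enzymes conjugate auxin and other acids to amino acids, and 3 of 7 rose and 1 fell. GH3.1 rose by 2.42 and GH3.17 by 0.99, and GH3.9 fell by 2.58. ABCB4, an auxin transporter best known from roots, had 3129 and 2818 normalized reads in bzr1-1D, 1495 and 1382 in wild type on PAC with PPZ and 1424 and 1158 in wild type on PAC (1.20). It was 1 of 3 transport genes of 13 that rose, and 1 fell. PPZ lowered 7 of the 13 in wild type. The rises numbered 1 without the shallower bzr1-1D library, and the falls 0 without either bzr1-1D library and 4 without the shallower library of wild type on PAC. Among 7 auxin synthesis genes 1 rose and 5 fell, with a median of -0.637. Leaving out either bzr1-1D library or the deeper library of wild type on PAC reduced both counts. In wild type PPZ lowered 4 of the 7 and raised 0, with a median of -0.615. With both on PPZ, 2 were higher and 2 lower in bzr1-1D than in wild type, with a median of -0.018.

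Among 9 genes of ethylene synthesis 3 rose and 3 fell. ACO3, an ACC oxidase of the last step, had 39.76 and 37.8 normalized reads in bzr1-1D, 615.7 and 722.9 in wild type on PAC with PPZ and 596.5 and 599.9 in wild type on PAC (-3.94 ± 0.19). Both wild-type groups were thus high and both bzr1-1D libraries low. ACS6, a stress-induced ACC synthase, rose by 1.24, and ACO4 fell by 0.66. With all 10 libraries in the fit ACS6 was not called (adjusted p = 0.117). Among 10 JAZ genes, which encode jasmonate repressors, 3 rose and 2 fell. JAZ1 rose by 1.46 and JAZ9 fell by 2.0. The JAZ rises numbered 1 without the deeper library of wild type on PAC, and the falls 1 without it or without the shallower bzr1-1D library.

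The enzymes of wall loosening changed unevenly. Expansins loosen the wall during growth, and of 21 tested 5 rose and 5 fell, with a median of -0.13, while 14 were bounded within 2-fold. PPZ lowered 12 of 24 and raised 7 in wild type. EXPA8, an expansin of elongating hypocotyls, had 283 and 221.4 normalized reads in bzr1-1D, 18.6 and 23.02 in wild type on PAC with PPZ and 515.3 and 486.4 in wild type on PAC. It was 2.00-fold lower in bzr1-1D than in wild type on PAC (-1.0 ± 0.14, adjusted p = 0.000597), and the change of wild type on PPZ was -4.56. EXLB1, an expansin-like protein, had 319.9 and 284.4 normalized reads in bzr1-1D, 110.7 and 141.5 in wild type on PAC with PPZ and 88.24 and 52.24 in wild type on PAC, a rise of 2.23 ± 0.22. EXPA10 fell by 2.04 ± 0.17, with 119.3 and 88.2 normalized reads in bzr1-1D, 331.3 and 356.3 in wild type on PAC with PPZ and 400.6 and 435 in wild type on PAC. EXPA2 and EXPB3 rose by 1.93 and 1.15, and EXPA6 fell by 0.67. EXLA2 had 264.1 and 233.1 normalized reads in bzr1-1D, 77.96 and 69.05 in wild type on PAC with PPZ and 264.7 and 214.4 in wild type on PAC, a change of 0.08 with a 95% interval of -0.25 to 0.41.

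XTH genes encode enzymes that cut and rejoin xyloglucan, and more of them rose than fell. Of 22 tested 9 rose and 4 fell, with a median of 0.34, against 6 rises and 9 falls of 25 in wild type on PPZ. XTH18 had 1452 and 1288 normalized reads in bzr1-1D, 643.2 and 499.6 in wild type on PAC with PPZ and 405.9 and 258.5 in wild type on PAC, a 4.36-fold rise (2.13 ± 0.18). XTH22, a touch- and brassinosteroid-induced member, had 1141 and 961.2 normalized reads in bzr1-1D, 349 and 346.1 in wild type on PAC with PPZ and 525.9 and 436.8 in wild type on PAC (1.14 ± 0.13, adjusted p = 0.000227). XTH23 had 596.3 and 513 normalized reads in bzr1-1D, 185.2 and 208 in wild type on PAC with PPZ and 236.5 and 143.2 in wild type on PAC, a rise of 1.66. These 3 genes stood higher in bzr1-1D than in either wild-type group. XTH6, XTH17 and XTH31 fell, with log2 changes of -1.82, -1.30 and -0.72. The rises numbered 5 without the shallower bzr1-1D library or the deeper library of wild type on PAC.

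GASA6, a gibberellin-induced secreted peptide tied to elongation, had 362.5 and 357.3 normalized reads in bzr1-1D, 219.7 and 218.2 in wild type on PAC with PPZ and 1846 and 1756 in wild type on PAC. It fell 5.02-fold (-2.33 ± 0.11), while GASA2 and GASA3 rose by 1.07 and 1.35, although GASA2 was not called with all 10 libraries in the fit (adjusted p = 0.116). The cellulose synthase genes of the list were all within 2-fold, with 0 of 7 called, although 2 rose without the shallower library of wild type on PAC. Lignin and secondary wall genes showed 8 rises and 2 falls among 25. The 2 that fell were 4CL3, a ligase that serves flavonoid synthesis, by -1.94 and CAD4, an alcohol dehydrogenase of lignin synthesis, by -1.28. The ligase 4CL2 and PAL4, which feed lignin synthesis, rose by 0.70 and 0.71, and the rises numbered 5 without the shallower bzr1-1D library.

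Aquaporins pass water and small solutes across membranes, and 8 of 26 tested rose and 4 fell, with a median of 0.22. Over all genes 15.3% rose and 15.7% fell. In wild type PPZ lowered 15 of 28, with a median of -0.48, and in bzr1-1D against wild type on PPZ 18 of 26 were higher. PIP2B, a plasma membrane channel chosen after its values were seen, had 11100 and 8421 normalized reads in bzr1-1D, 4181 and 4030 in wild type on PAC with PPZ and 9230 and 7486 in wild type on PAC (0.20 ± 0.17). TIP4;1, a tonoplast channel, rose by 2.89 and NIP5;1, a boron channel, by 1.62, and both were also high in wild type on PPZ, with log2 changes there of 2.41 and 1.30. TIP2;3 fell by 1.02. The rises numbered 5 without the shallower bzr1-1D library, and the falls 2 without either bzr1-1D library and 7 without the deeper library of wild type on PAC. Very-long-chain fatty acid and wax genes had a median of 0.02, with 3 rises and 2 falls among 18, not far from the shares over all genes. KCS2, an elongase, had 1585 and 1275 normalized reads in bzr1-1D, 568.8 and 621.5 in wild type on PAC with PPZ and 557.7 and 462.1 in wild type on PAC (1.5), and CER1, of alkane synthesis, rose by 1.36. Without the shallower library of wild type on PAC 5 wax genes rose, and without the deeper bzr1-1D library 1 fell.

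**Figure D3:**
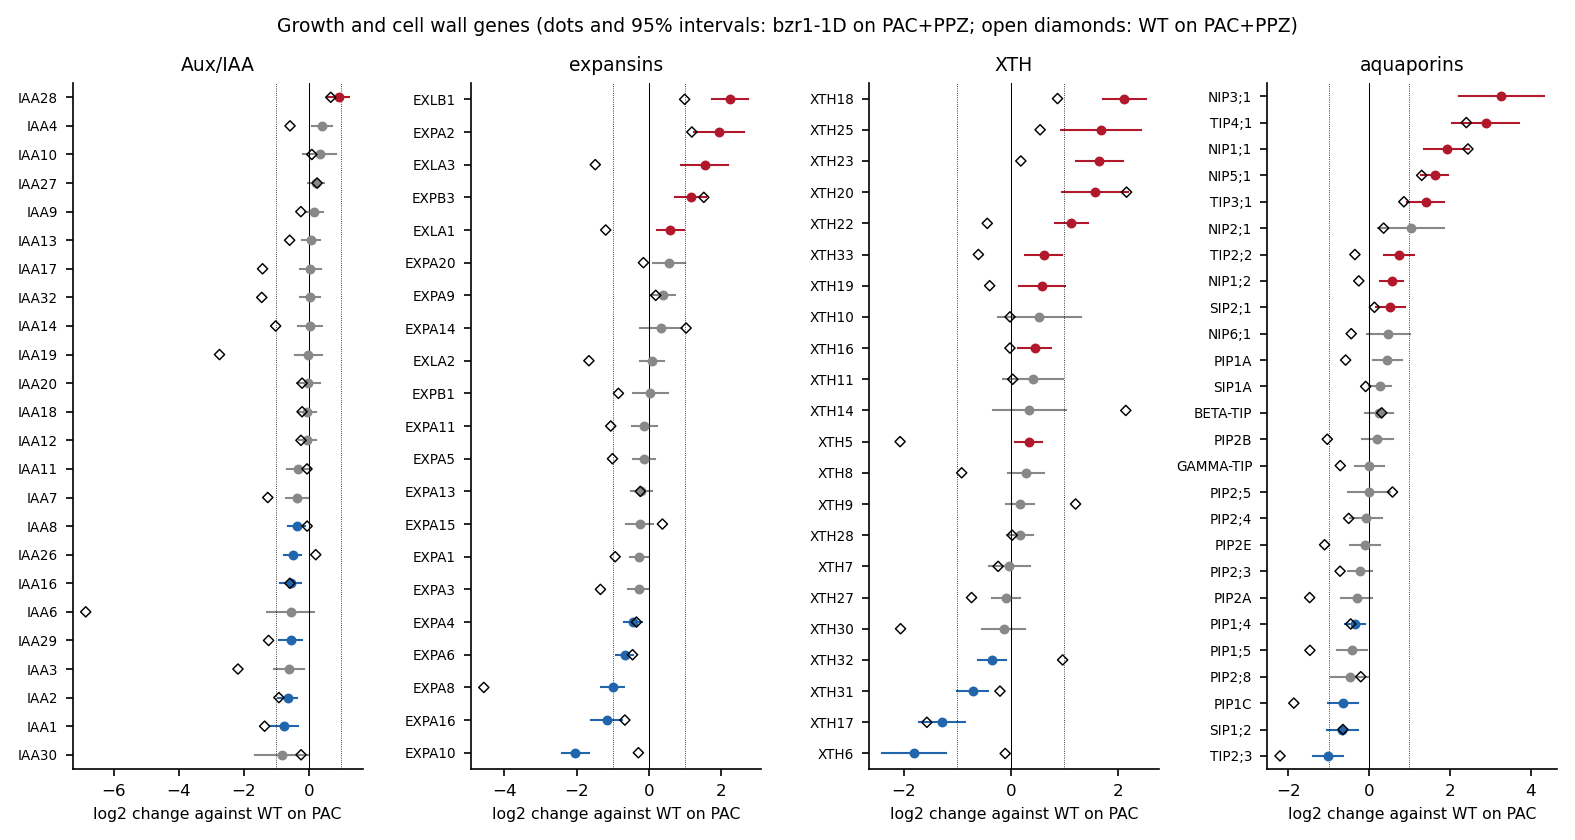
Log2 change over wild type on PAC (horizontal axis) of each tested Aux/IAA, expansin, XTH and aquaporin gene (rows). Dots with 95% intervals are bzr1-1D on PAC with PPZ, open diamonds are wild type on PAC with PPZ, and dotted lines mark 2-fold. IAA19 sits at -0.02 as a dot and at -2.75 as a diamond, EXPA8 at -1.0 and -4.56, and XTH22 at 1.14 and -0.44.

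Flavonoid and anthocyanin synthesis stood out below both wild-type groups. These pigments are induced by light through HY5 and MYB factors. Of 6 tested early flavonoid genes 5 fell and 0 rose, with a median of -1.60, and of 9 anthocyanin genes 7 fell and 0 rose, with a median of -1.86. In wild type PPZ raised 2 of the early genes and 5 of the anthocyanin genes and lowered 0. TT4, chalcone synthase, the entry enzyme, had 1355 and 1423 normalized reads in bzr1-1D, 6328 and 6831 in wild type on PAC with PPZ and 5473 and 6310 in wild type on PAC, a 4.22-fold fall (-2.08 ± 0.13, adjusted p = 7e-06). FLS1, flavonol synthase, had 147.7 and 177.3 normalized reads in bzr1-1D, 993.1 and 1037 in wild type on PAC with PPZ and 751.8 and 816.9 in wild type on PAC, a 4.85-fold fall. DFR, the first enzyme of the anthocyanin branch, had 13.25 and 31.5 normalized reads in bzr1-1D, 197.6 and 191 in wild type on PAC with PPZ and 169.4 and 145 in wild type on PAC, a 7.36-fold fall (-2.88 ± 0.33, adjusted p = 0.0002). None of these enzymes overlapped between bzr1-1D and either wild-type group. The flavonol regulator MYB111, the next anthocyanin enzyme LDOX and GSTF12, which carries the pigment to the vacuole, fell with log2 changes of -1.38, -1.86 and -2.09.

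Regulators of greening and light responses were also low. Of 12 tested, 9 fell and 1 rose, with a median of -0.88. HYH, a bZIP relative of HY5, had 52.06 and 63.9 normalized reads in bzr1-1D, 425.2 and 422 in wild type on PAC with PPZ and 460.6 and 496.3 in wild type on PAC, an 8.28-fold fall (-3.05 ± 0.18, adjusted p = 6.6e-06). HY5, which promotes photomorphogenesis, had 356.9 and 417.6 normalized reads in bzr1-1D, 637.9 and 748.5 in wild type on PAC with PPZ and 937.1 and 1238 in wild type on PAC, a 2.80-fold fall (-1.49 ± 0.16, adjusted p = 0.00011), and its change in wild type on PPZ was -0.65. GLK2, an activator of chloroplast genes, fell by 1.26, with 489.4 and 463.5 normalized reads in bzr1-1D, 947 and 943.7 in wild type on PAC with PPZ and 1039 and 1237 in wild type on PAC. GLK1, its relative and a known BZR1 target, had 278.3 and 260.1 normalized reads in bzr1-1D, 404 and 435.6 in wild type on PAC with PPZ and 291.2 and 410.7 in wild type on PAC. The change of GLK1 was -0.41 (adjusted p = 0.0932), and it was called at -0.63 and 0.000347 without the shallower library of wild type on PAC, and at an adjusted p of 0.0383 with all 10 libraries in the fit. Without either bzr1-1D library 0 of the 12 rose. Among 9 photoreceptors 4 fell and 0 rose, including PHYC by -0.56, and the falls numbered 1 and 2 without the shallower and the deeper bzr1-1D library.

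Clock genes changed in both directions. LHY, a morning factor, had 645.6 and 642.6 normalized reads in bzr1-1D, 1598 and 1555 in wild type on PAC with PPZ and 1814 and 1691 in wild type on PAC (-1.45 ± 0.11). GI, an evening gene, had 1061 and 1004 normalized reads in bzr1-1D, 325.1 and 323.1 in wild type on PAC with PPZ and 593 and 599 in wild type on PAC, a rise of 0.79. PRR3 also rose, by 0.86, and ELF4 and ELF3 of the evening complex fell, with log2 changes of -1.15 and -0.73. In all, 2 of 12 clock genes rose and 4 fell, and 7 fell without the shallower library of wild type on PAC.

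Chlorophyll synthesis and the photosynthetic apparatus were lower in nearly all genes tested. Of 22 tested chlorophyll synthesis genes 20 fell and 1 rose, with a median of -1.02, while in wild type PPZ raised 3 and lowered 0. GUN4, which regulates magnesium chelatase, had 625.7 and 774 normalized reads in bzr1-1D, 2621 and 2737 in wild type on PAC with PPZ and 2128 and 2952 in wild type on PAC, a 3.57-fold fall (-1.83 ± 0.17, adjusted p = 5.3e-05). GUN5, a subunit of that chelatase, had 6047 and 7406 normalized reads in bzr1-1D, 18480 and 18580 in wild type on PAC with PPZ and 16430 and 22140 in wild type on PAC (-1.51). The single rise of the list was lost without the shallower bzr1-1D library or the deeper library of wild type on PAC.

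All 24 tested nuclear photosystem subunit genes fell, 20 of them at least 2-fold, with a median of -1.20. The median in wild type on PPZ was 0.06, with 1 of 25 tested lower, and all 24 were lower in bzr1-1D than in wild type on PPZ. PSAK, of photosystem I, had 1399 and 1593 normalized reads in bzr1-1D, 5740 and 6194 in wild type on PAC with PPZ and 5248 and 6374 in wild type on PAC, a 3.85-fold fall (-1.95 ± 0.14, adjusted p = 1.38e-05). PSAN and PSAH2, also of photosystem I, fell, with log2 changes of -1.80 and -1.76. Light-harvesting proteins showed 17 falls of 19 tested and 0 rises, with a median of -1.25, and 1 rise without the deeper library of wild type on PAC. LHCB1.4, an antenna protein under the symbol LHB1B1, had 185.5 and 189.9 normalized reads in bzr1-1D, 1810 and 1985 in wild type on PAC with PPZ and 2951 and 4954 in wild type on PAC (-4.32 ± 0.22, adjusted p = 3.89e-06). CAB2, another copy of the same antenna protein, fell 6.21-fold, with 591.6 and 566.1 normalized reads in bzr1-1D, 2283 and 2464 in wild type on PAC with PPZ and 2910 and 4569 in wild type on PAC. CAB3, a further copy, had 4674 and 4898 normalized reads in bzr1-1D, 2742 and 3020 in wild type on PAC with PPZ and 3471 and 5983 in wild type on PAC, a change of 0.10 with a 95% interval of -0.40 to 0.59, and was called higher (0.47, adjusted p = 0.00881) without the deeper library of wild type on PAC. These copies are nearly identical, so how reads were split among them is uncertain.

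All 13 tested genes of Rubisco and the Calvin cycle fell, with a median of -1.10. RBCS1B, a small subunit of Rubisco with near-identical copies, had 352.1 and 408.6 normalized reads in bzr1-1D, 2406 and 2780 in wild type on PAC with PPZ and 1267 and 2010 in wild type on PAC (-2.06). RCA, Rubisco activase, had 7451 and 8744 normalized reads in bzr1-1D, 23400 and 22520 in wild type on PAC with PPZ and 20100 and 26460 in wild type on PAC (-1.52). The summed level of 24 photosystem genes was 58920 and 68310 in bzr1-1D, 147900 and 155700 in wild type on PAC with PPZ and 128700 and 173600 in wild type on PAC. In bulk tissue, fewer cells of a type and less RNA per cell cannot be told apart. Of 133 plastid-encoded genes, which are poorly caught by most messenger RNA library kits, 69 were tested, of which 16 fell and 0 rose with a median of -0.63, and 39 were at 0 in all 6 libraries. That count became 4 without the shallower bzr1-1D library, 28 without the deeper one and 37 without the deeper library of wild type on PAC.

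**Figure D4:**
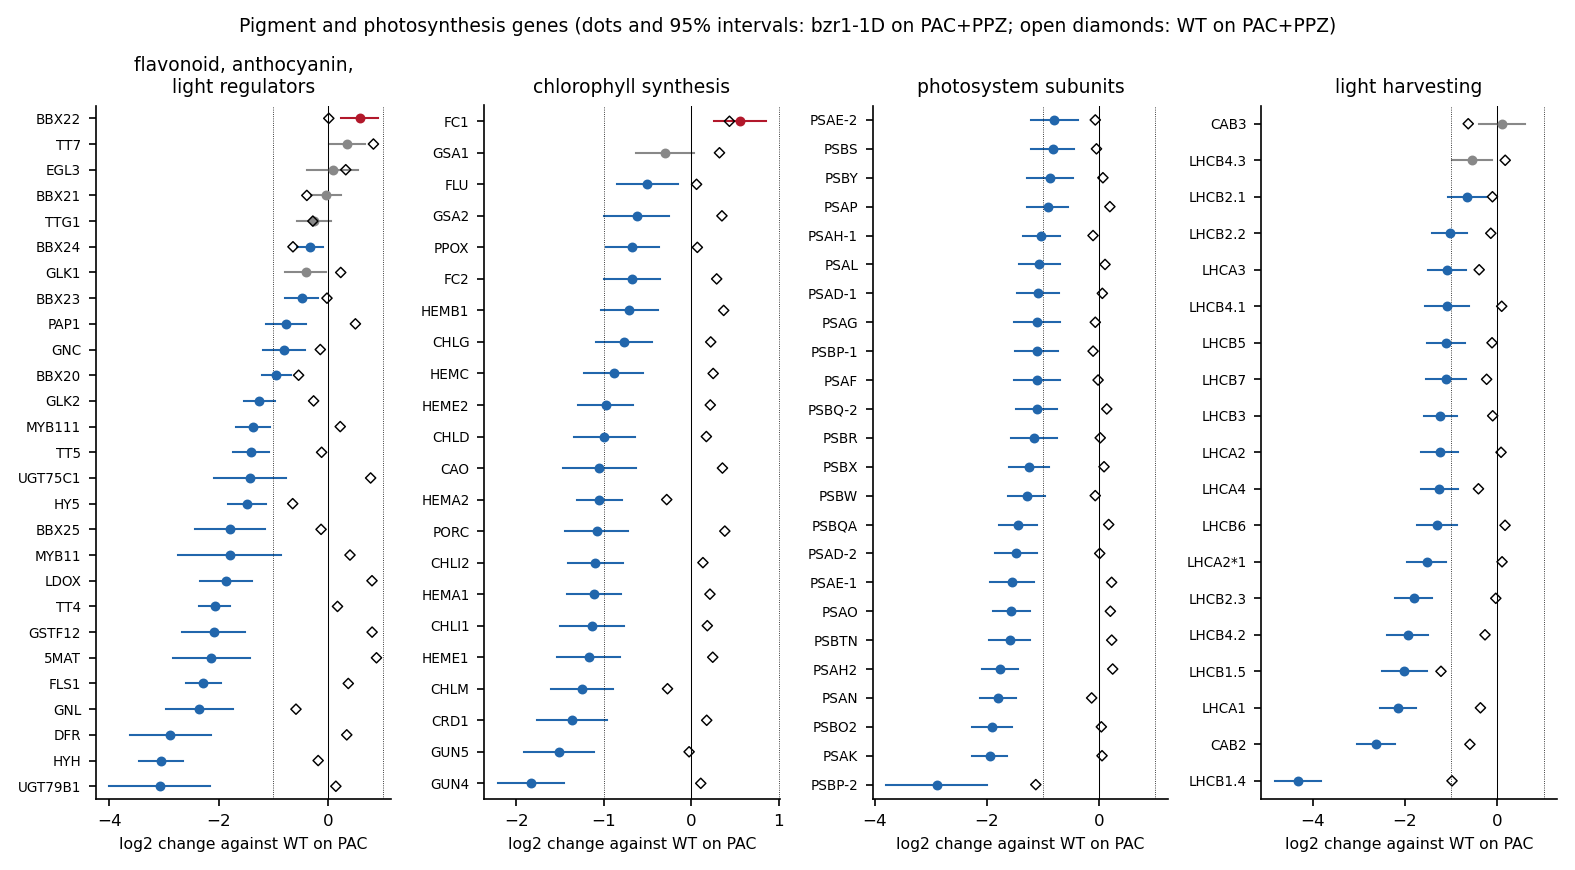
Log2 change over wild type on PAC (horizontal axis) of each tested gene (rows) of flavonoid and anthocyanin synthesis, light regulation, chlorophyll synthesis, photosystems and light harvesting. Dots with 95% intervals are bzr1-1D on PAC with PPZ and open diamonds wild type on PAC with PPZ, and dotted lines mark 2-fold. The dots of all 24 photosystem genes lie below 0, and HYH is at -3.05 and DFR at -2.88.

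Markers of seed and root hairs were examined as signs of tissues other than the labelled hypocotyl, for which the lists hold no defining marker of its own. The root hair list had a summed level of 398.5 and 336.6 normalized reads in bzr1-1D, 765.5 and 712.8 in wild type on PAC with PPZ and 178.2 and 235.1 in wild type on PAC. The root hair regulators RSL2 and RSL4, chosen after their values were seen, had at most 0.9 and 6.626 normalized reads in bzr1-1D. They do not stand for the list, whose sum was higher in both bzr1-1D libraries than in either library of wild type on PAC. Of the 14 genes 6 passed the filter, of which 1, the transporter PHT1;1, rose, by 1.93, and 0 fell, while 1 fell without the shallower library of wild type on PAC. PPZ raised 9 of 11 in wild type. Of 14 seed reserve genes, the 13 whose reads could be split into single libraries in every group were summed. Their summed level was 15410 and 11640 in bzr1-1D, 23050 and 25900 in wild type on PAC with PPZ and 14510 and 10340 in wild type on PAC. Over these 13 genes bzr1-1D overlapped the last. CRU3, a highly expressed storage protein gene outside that sum, had group means of 14690, 17070 and 9011 normalized reads in the same order, without a test. The overlap therefore does not cover all seed reserve reads. Of 13 tested reserve genes 7 rose, with a median of 0.50, whereas wild type on PPZ rose in 14 of 14. SESA5, a seed storage albumin, had 719.4 and 610.2 normalized reads in bzr1-1D, 1160 and 1106 in wild type on PAC with PPZ and 248.8 and 198.2 in wild type on PAC (1.60). OLEO2 and OLEO1, oil body proteins, rose by 1.48 and 1.01. The reserve rises numbered 4 without either bzr1-1D library or without the deeper library of wild type on PAC, and 1 gene fell without the last. The part of such cells or states in other results was not tested.

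Cold- and abscisic acid-responsive genes showed 7 rises and 0 falls among 9, with a median of 1.02. In wild type PPZ raised 6 of 10 and lowered 3, with a median of 0.65. With both on PPZ, 5 of 9 were higher and 0 lower in bzr1-1D than in wild type, with a median of 0.45. LTI78, a dehydration-response protein, had 1154 and 1187 normalized reads in bzr1-1D, 548.4 and 588.2 in wild type on PAC with PPZ and 384.7 and 290 in wild type on PAC, a 3.57-fold rise (1.83 ± 0.14, adjusted p = 2.04e-05). LTI30, a dehydrin, had 201.6 and 197.1 normalized reads in bzr1-1D, 139.1 and 185 in wild type on PAC with PPZ and 61.77 and 36.93 in wild type on PAC (2.13). LTI78 was also higher in bzr1-1D than in wild type on PPZ (1.03, adjusted p = 9.27e-07), whereas LTI30 was not called in that comparison (0.30, adjusted p = 0.097). LTI65 rose by 1.49. Glucosinolate synthesis, which makes sulphur-rich defence compounds, was partly higher. Of 12 indolic pathway genes 7 rose and 0 fell, with a median of 0.60. Wild type on PPZ was alike, with 7 rises, 0 falls and a median of 0.62. With both on PPZ, 4 of the 12 were higher and 3 lower in bzr1-1D than in wild type, with a median of 0.008. CYP83B1, the entry enzyme to indolic compounds, had 2525 and 2086 normalized reads in bzr1-1D, 1362 and 1298 in wild type on PAC with PPZ and 896.5 and 712.5 in wild type on PAC (1.53), and CYP81F2, which modifies them, rose by 1.89. Of 15 aliphatic pathway genes 8 rose and 2 fell, with a median of 0.48, against 13 rises and a median of 2.17 in wild type on PPZ. CYP83A1, the matching entry enzyme, had 31.24 and 26.1 normalized reads in bzr1-1D, 152.4 and 150 in wild type on PAC with PPZ and 5.294 and 7.206 in wild type on PAC (2.04). For CYP83A1 bzr1-1D therefore lay between the 2 wild-type groups. The aliphatic rises numbered 3 without the shallower bzr1-1D library, where 1 fell, and 4 without the deeper library of wild type on PAC.

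Cell cycle genes and common reference genes were examined as further lists. Of 31 cell cycle genes 3 rose and 3 fell, including CYCB2;3, a mitotic cyclin, with 392.8 and 426.6 normalized reads in bzr1-1D, 109 and 91.22 in wild type on PAC with PPZ and 91.77 and 98.18 in wild type on PAC (2.08). CYCD3;2, a cyclin of the entry to division, fell by 0.84. Without the shallower or the deeper bzr1-1D library the counts were 1 rise and 1 fall, and without the deeper library of wild type on PAC 1 rise. All 10 reference genes lay within 2-fold and 1 rose, which was lost without either bzr1-1D library. PP2AA3, a phosphatase subunit often used for normalization, had 1125 and 1141 normalized reads in bzr1-1D, 1100 and 1130 in wild type on PAC with PPZ and 1121 and 1158 in wild type on PAC.

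**Figure D5:**
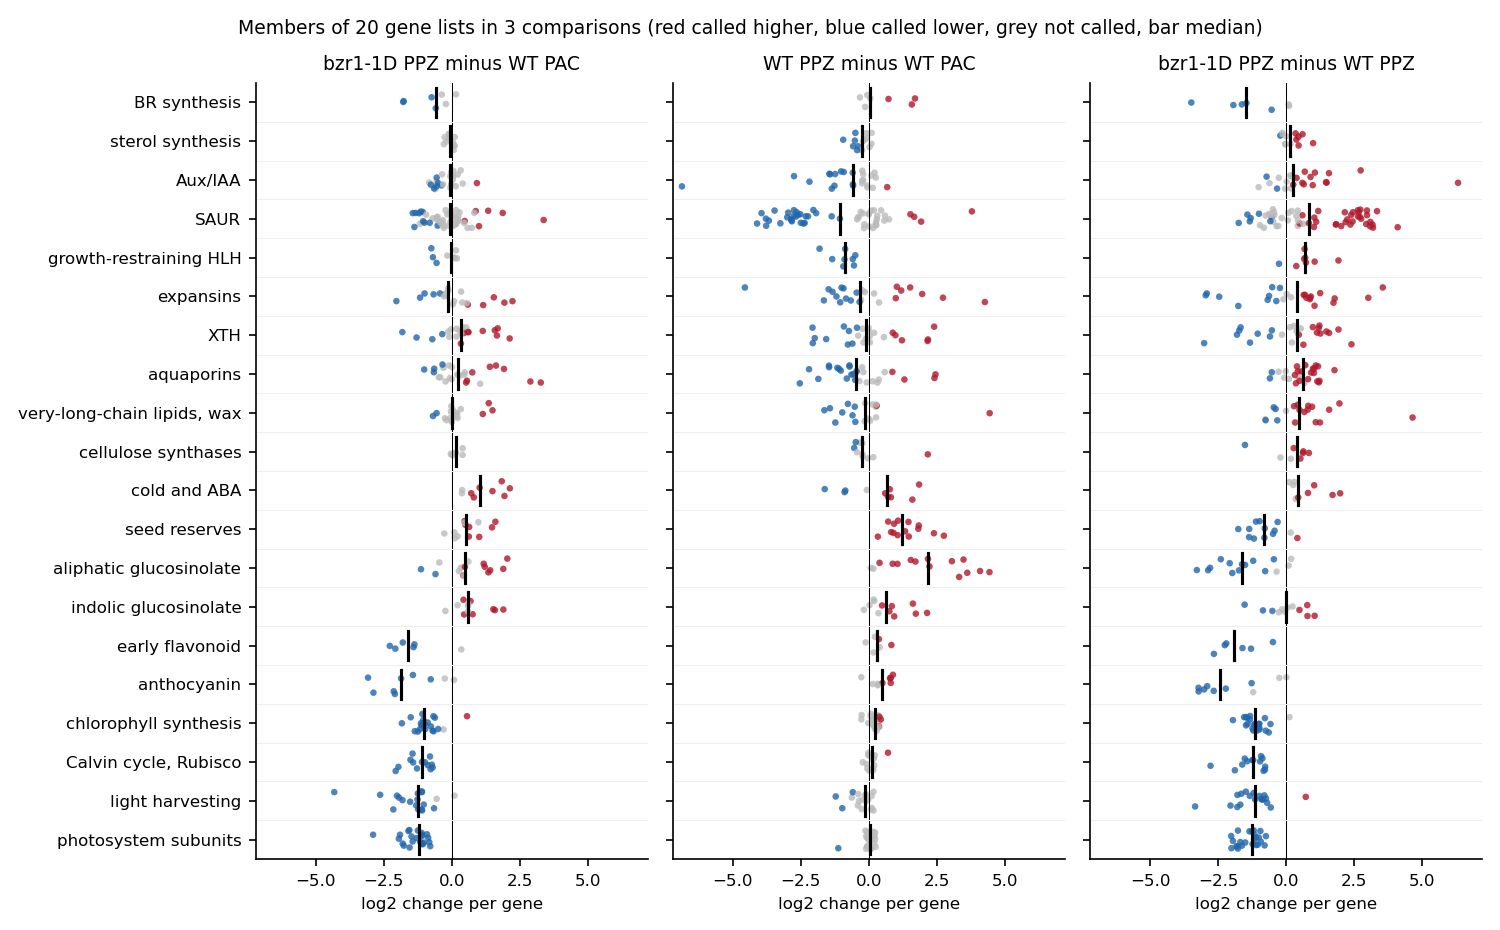
Log2 change of the tested genes (points, horizontal axis) of 20 gene lists (rows) in bzr1-1D on PAC with PPZ over wild type on PAC, wild type on PAC with PPZ over wild type on PAC, and bzr1-1D over wild type with both on PPZ. Red points rose, blue points fell, grey points were not called, and bars mark medians. The photosystem median is -1.20, 0.06 and -1.24 in these comparisons, and that of the SAUR genes -0.06, -1.07 and 0.84.

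For 103 highly expressed genes the reads of single libraries could not be recovered in every group, so their deposited group means are given without a test. CAB1, an antenna protein, had a mean of 37720 normalized reads in bzr1-1D, 72340 in wild type on PAC with PPZ and 82000 in wild type on PAC, a ratio of 0.462 over the last. RBCS1A, the main small subunit of Rubisco, had means of 55990 normalized reads in bzr1-1D, 88980 in wild type on PAC with PPZ and 98910 in wild type on PAC. EXT3, a wall extensin, had 16800 normalized reads in bzr1-1D, 15010 in wild type on PAC with PPZ and 2616 in wild type on PAC, a ratio of 6.44. FSD1, an iron superoxide dismutase, had 16380 normalized reads in bzr1-1D, 8868 in wild type on PAC with PPZ and 3684 in wild type on PAC. XTH4 had 14040 normalized reads in bzr1-1D, 3750 in wild type on PAC with PPZ and 14860 in wild type on PAC, a ratio of 0.948. GASA1 and GASA4 had ratios of 1.23 and 1.09, and the tonoplast aquaporin DELTA-TIP 0.826, with 12200 normalized reads in bzr1-1D, 2560 in wild type on PAC with PPZ and 14830 in wild type on PAC. PORA and PORB, which reduce protochlorophyllide in etiolated tissue, had ratios of 0.819 and 0.790, with PORB at 19890 normalized reads in bzr1-1D, 48760 in wild type on PAC with PPZ and 25290 in wild type on PAC.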

How the data were processed

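RNA-seq of 10 dark-grown hypocotyl samples in 5 groups of 2 was used in the form the authors deposited. Per the labels' protocols, libraries were made with the TruSeq RNA kit. The authors used TopHat and DESeq, per the submitters' processing notes. What versions, build, annotation, counter and strand setting were used is not given in the sources used, so no coordinates or sequences are printed and overlapping genes are uncertain. Per the file headers, each of 3 tables holds for every gene the authors' deposited signal of both groups, a mean of reads divided by DESeq size factors. A further deposited column is the ratio (fold) of these means, and the authors' DESeq p-value and its adjusted form follow, per the file headers. Of each total, 8.61 to 10.7% fell in the row of reads with several alignments, 1.47 to 1.58% in no gene and 1.34 to 1.47% in ambiguous positions, and these rows were left out.

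Tables were joined by locus. Each mean was split into the whole reads of its 2 libraries, which resolved 99.57% of genes with reads in bzr1-1D, 99.93% in wild type on PAC with PPZ and 99.95% in wild type on PAC. Reads were tested with limma-voom (limma 3.58.1, R 4.3.3) after scaling by median ratios (the median ratio of the deposited means was 0.9962), with a minimum mean of 10 normalized reads, and the scripts were tested on simulated data. Symbols came from a RefSeq table of TAIR10.1, which matched 32709 of 33518 loci. The members and lists were chosen with earlier results of these data known. Named genes are the 12 largest called changes in each direction with a symbol, a mean of at least 50 and no overlap, up to 3 called genes per list and direction and up to 2 bounded within 2-fold, and a fixed set of hormone, growth and light genes. The result for 1 gene under this rule is not reported here. With 2 libraries a group, intervals on read ratios cover counting error only. Other scalings, filters, thresholds, fits and left-out libraries were tried.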

Additional observations from a re-analysis of the deposited data

How the results depend on the processing

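Among genes of the lists and of the largest changes, plastid genes aside, no called direction was reversed under any alternative run. Other called genes were not checked for this. In bzr1-1D on PAC with PPZ against wild type on PAC, leaving out 1 library in turn gave 1771 to 3622 genes higher, 1566 to 4003 lower and 3337 to 7625 in all, the lowest without the shallower bzr1-1D library and the highest without the shallower library of wild type on PAC; such fits assume that the lone library varies like the others. Without the deeper bzr1-1D library 4507 were called and without the deeper library of wild type on PAC 5121. At an adjusted p under 0.01 the counts were 1822 higher, 1754 lower and 3576 in all, and with at least 2-fold 1522, 856 and 2378. Genes bounded within 1.5-fold numbered 8296, and those within 2-fold 12030 to 13933 with 1 library left out. With 1 library left out, wild type on PAC with PPZ against wild type on PAC called 2223 to 7905, and bzr1-1D against wild type on PPZ 6760 to 10333, while the authors' deposited table of the last called 7276. TMM factors (6015 called), upper-quartile factors (6024), limma-trend with a pseudocount of 1 (5522) or 5 (5656), all 10 libraries (7976), no level filter (6576) and a minimum of 50 (4883) stayed within 1.5 times the 6000. Upper-quartile factors gave 3368 higher and 2656 lower. List counts under left-out libraries and other fits were added after seeing the data. With all 10 libraries in the fit the falls became 2 in sterol synthesis and brassinosteroid inactivation and 3 in auxin transport, and the rises 1 in the growth bHLH, shade and early flavonoid lists, 2 in cellulose synthases, reference genes and Aux/IAA, and 6 in the cell cycle. Upper-quartile factors gave 1 fall in brassinosteroid signalling and 0 in auxin transport, and rises of 1 in the growth bHLH and shade lists, 2 in Aux/IAA and 5 in the cell cycle. TMM factors gave 1 signalling fall and 1 growth bHLH rise, and limma-trend with a pseudocount of 1 gave 1 signalling fall, 1 PIF rise, and 0 rises and 3 falls in auxin synthesis. Of 182 called genes named by the rule, 128 stayed called without any 1 library; 40 calls ended without the shallower bzr1-1D library, 33 without the deeper, and 6 and 22 without the shallower and deeper libraries of wild type on PAC. The planned edgeR and DESeq2 alternatives were not run, and the recovered reads were tested with limma alone. No paired analysis was possible because the columns carry no replicate number. Depth limits genes of few reads: 14091 fell below the filter.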
